A study of Mus musculus with 16 samples.

Results

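Of the 55335 genes in the count table of the CAY10566 cohort, 8 were members of the neurexin, neuroligin and LRRTM families of synaptic organizers, and they were chosen by name: Nrxn2, Nrxn3, Nlgn1, Nlgn3, Lrrtm1, Lrrtm2, Lrrtm3 and Lrrtm4. Other genes of these families were not analysed here. The hippocampi of 16 female mice, aged 10 months, were sequenced in bulk, 4 mice in each of 4 groups. WT-D and WT-S mice carried no transgene (strain C57BL/6J x 129S1), whereas 3xTg-D and 3xTg-S mice were of the 3xTg line, which carries transgenes for human APP with the Swedish mutation and human tau P301L, both driven by the neuron-specific Thy1.2 element, beside another allele. All 16 mice received an intracerebroventricular infusion for 28 days from an osmotic pump. WT-D and 3xTg-D mice received the vehicle, 0.8% DMSO in artificial cerebrospinal fluid, and WT-S and 3xTg-S mice received 80 µM of the SCD inhibitor (SCDi) CAY10566 in the same vehicle. SCD (stearoyl-CoA desaturase) makes monounsaturated fatty acids from saturated ones. The WT mice were a background strain rather than littermates of the 3xTg mice. A protocol text common to the cohort names ab142089, another SCDi, while the sample titles and treatment labels name the Cayman compound.

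The members lie at separate places in the mouse genome (GRCm38). Nrxn2 is on chromosome 19 (6418731-6544169, plus strand) and Nrxn3 on chromosome 12 (88722876-90334935, plus strand), where it spans 1612 kb. Nlgn1 spans 906 kb of chromosome 3 (25426215-26332460, minus strand), and Nlgn3 is a compact gene of the X chromosome (101299168-101325963, plus strand). Lrrtm1 (chromosome 6, 77242689-77257791, plus strand), Lrrtm2 (chromosome 18, 35209003-35215024, minus strand) and Lrrtm3 (chromosome 10, 63928472-64090277, minus strand) each lie inside an alpha-catenin gene on the opposite strand, Ctnna2, Ctnna1 and Ctnna3. Lrrtm4, also on chromosome 6 (80018877-80810143, plus strand), spans 791 kb, of which exons cover 0.777%, and shares exon bases with an antisense gene, as given below. The exons of Lrrtm1 and Lrrtm3 share no base with those of their host genes and the exons of Lrrtm2 share 95 bases.

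Neurexins are presynaptic adhesion proteins whose ectodomains reach across the synaptic cleft. Neuroligins and LRRTMs (leucine-rich repeat transmembrane proteins) are postsynaptic partners that compete for and share neurexin binding, and they help to gather receptors opposite the release sites. In the hippocampus, LRRTMs are known for their roles in AMPA receptor retention and excitatory synapse organization, Nlgn1 acts mainly at excitatory synapses, and Nlgn3 is found at excitatory and inhibitory synapses. Alternative splicing of the neurexins sets which partner binds, and counts per gene do not resolve it.

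Promoters of the LRRTM genes are shown because these paralogs stood far apart in level, as described below. RefSeq (GRCm38.p6) windows of 300 bases, from 250 bases before a transcription start to 50 bases after, were used for 5 of the 8 members, with Lrrtm2 not among them. Capitals mark the motif matches that a search of both strands found among the CRE (TGACGTCA), the GC box (GGGCGG) and the TATA box (TATAAA), of which none overlapped another. The windows are chr6:77242227-77242526 (plus strand), chr10:64090206-64090505 (minus strand) and, for the first of the 2 Lrrtm4 starts, chr6:80018627-80018926 (plus strand).
Lrrtm1: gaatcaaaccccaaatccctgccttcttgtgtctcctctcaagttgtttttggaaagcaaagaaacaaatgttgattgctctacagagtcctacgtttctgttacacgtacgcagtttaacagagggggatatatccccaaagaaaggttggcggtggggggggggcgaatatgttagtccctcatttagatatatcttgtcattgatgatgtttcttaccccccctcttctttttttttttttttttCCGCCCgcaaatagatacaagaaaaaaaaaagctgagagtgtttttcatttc
Lrrtm3: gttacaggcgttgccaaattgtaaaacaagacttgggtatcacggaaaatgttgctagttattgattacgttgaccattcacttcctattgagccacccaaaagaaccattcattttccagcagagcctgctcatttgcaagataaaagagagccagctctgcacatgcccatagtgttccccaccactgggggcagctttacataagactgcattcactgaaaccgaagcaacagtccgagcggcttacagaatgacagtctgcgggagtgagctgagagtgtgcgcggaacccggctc
Lrrtm4: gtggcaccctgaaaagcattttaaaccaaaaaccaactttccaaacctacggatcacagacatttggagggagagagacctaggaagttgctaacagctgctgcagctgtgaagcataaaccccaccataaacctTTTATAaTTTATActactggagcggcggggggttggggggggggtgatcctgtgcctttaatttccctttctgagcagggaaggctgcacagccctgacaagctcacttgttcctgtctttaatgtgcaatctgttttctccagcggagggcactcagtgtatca
The Lrrtm1 window held 1 GC box, read from the opposite strand, the Lrrtm4 window held 2 TATA boxes, also on the opposite strand, and the Lrrtm3 window held none of these letters. Of all 32851 RefSeq promoter windows, 35.7% held a GC box, 13.6% a TATA box and 1.79% a CRE. GC content was 40.7% in the Lrrtm1 window and 48.7% in each of the Lrrtm3 and first Lrrtm4 windows, against a median of 52.7% over all windows. The window of the second Lrrtm4 start (chr6:80019393-80019692), not shown, had 53.3% and none of the 3 motifs. The Lrrtm1 window ends before the gene start given above, 77242689. Which start was used in these hippocampi cannot be read from counts per gene.

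All 8 members were well measured. Reads on genes numbered 15413385 to 23590149 per mouse, and the member with the fewest reads, Lrrtm3, had 349 to 653 of them, while Nrxn3 had 4362 to 6156. All 8 passed the filter on low counts that left 16475 genes. Among 9 markers of hippocampal neurons, Snap25, a vesicle fusion protein, had 2061 to 2727 CPM (read counts relative to the library's total, scaled by TMM). Prox1, a dentate granule cell factor, had 97.1 to 155 CPM. C1ql2 was the lowest of the 9, at 14.3 to 49.4 CPM, and the others were at 53.1 CPM or more in every mouse. Of the thalamus markers, Tcf7l2 had at most 7.93 CPM, whereas Rora had 53.9 to 65.5 CPM and Prkcd 16.7 to 30 CPM, and of the striatum markers, Drd1 had at most 8.85 CPM and Rgs9 at most 12.9 CPM. The choroid plexus marker Ttr ranged from 0.756 to 638 CPM between mice, and the summed choroid plexus markers reached 726 CPM in 1 WT-D and 290.4 CPM in 1 WT-S mouse, against at most 45.3 CPM in any 3xTg mouse.

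Levels were compared between members as CPM per kilobase of exon. Lrrtm1 stood first, at 28.6 ± 1.76 CPM per kb (SD, n = 16), above every other member in all 16 mice. Nrxn3 (20.5 ± 2.06) and Lrrtm2 (20.0 ± 1.28) came next and were not separated, since Nrxn3 was the higher of them in 11 of 16 mice. Nrxn2 (12.9 ± 0.855), Nlgn1 (11 ± 0.471) and Lrrtm4 (9.24 ± 0.741) followed, with ranges that overlapped from one to the next although each was above the next in 15 of 16 mice. Lrrtm3 (5.75 ± 0.767) and Nlgn3 (5.53 ± 0.499) came last and overlapped, with Lrrtm3 the higher in 10 of 16 mice. In the hippocampus of these mice the LRRTM paralogs thus stood at the top and near the foot of the order, while the neurexins stood in its upper part.

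**Figure D1:**
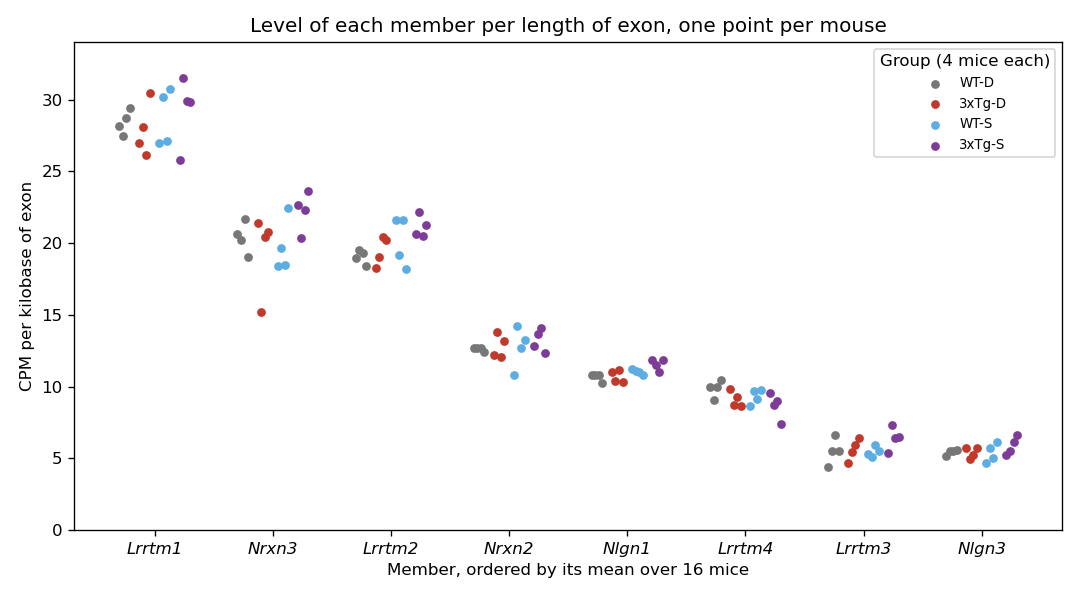
CPM per kilobase of exon (y axis) of the 8 members, ordered by their mean over 16 mice (x axis), with 1 point per mouse coloured by group. Lrrtm1 lies above all other members in every mouse, and 1 3xTg-D mouse is low for Nrxn3, at 15.2.

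The low end of this order rests on how exons are counted. Of the exon bases of Nlgn3, 41.2% also belong to Gm21986, a transcript on the same strand, and reads there cannot be given to either gene alone. Without those bases in its length, Nlgn3 stood at 9.41 CPM per kb, sixth rather than eighth. Lrrtm4 shares 25.1% of its exon bases with the antisense gene Gm4409 and Nlgn1 shares 9.16% with the antisense gene A830092H15Rik. The strand setting of the counting is not given in the sources used here, and without these bases Lrrtm4 stood at 12.3 and Nlgn1 at 12.1 CPM per kb, in reversed order. Lrrtm1, Nrxn3, Lrrtm2 and Nrxn2 kept the first 4 places either way.

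The first question was whether the genotype altered these organizers under vehicle. It was not detectable for any of the 8 members between WT-D and 3xTg-D. With a DEG taken as an unadjusted p of 0.01 or less in edgeR's quasi-likelihood test (two-sided), 0 of 8 members were DEGs, where 4.91% of all tested genes were, and 0 of 8 had an unadjusted p of 0.05 or less. Log2 fold changes of the members (3xTg-D minus WT-D) ran from −0.12 for Lrrtm4 to 0.03 for Lrrtm2, with a median of 0.00. Mice of the 2 groups overlapped in the CPM of all 8 members, while 8.17% of all genes did not overlap. The 95% confidence intervals of the 8 differences together ran from a decrease of 17.9% to an increase of 23.8%, so larger changes fell outside them. In bulk tissue, fewer cells of a type and less RNA per cell cannot be told apart.

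Nrxn3, the most abundant member in CPM and a presynaptic ligand of the other families, was at 260.0, 255, 274 and 239.6 CPM in the 4 WT-D mice and at 269.6, 191, 258 and 262 CPM in the 4 3xTg-D mice. A single 3xTg-D mouse stood low and the other 3 lay within the WT-D range. Nrxn2, the second neurexin, was tight in WT-D mice, at 175, 176, 176 and 172 CPM, and wider in 3xTg-D mice, at 169, 190.4, 167 and 182 CPM. The neuroligins were near level, with means of 143 ± 3.82 (WT-D) and 144 ± 5.67 CPM (3xTg-D) for Nlgn1 (SD, n = 4 each) and of 50.4 ± 1.88 and 50.1 ± 3.51 CPM for Nlgn3.

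The plot of members by mouse shows that the spread within groups was as wide as most gaps between them. Across the 4 groups, the coefficient of variation of a member within a group ran from 1.06% (Nrxn2 in WT-D) to 16.6% (Lrrtm3 in WT-D), and the highest of the 16 mice exceeded the lowest by 1.16 times for Nlgn1, the steadiest member, and by 1.67 times for Lrrtm3, the least steady.

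**Figure D2:**
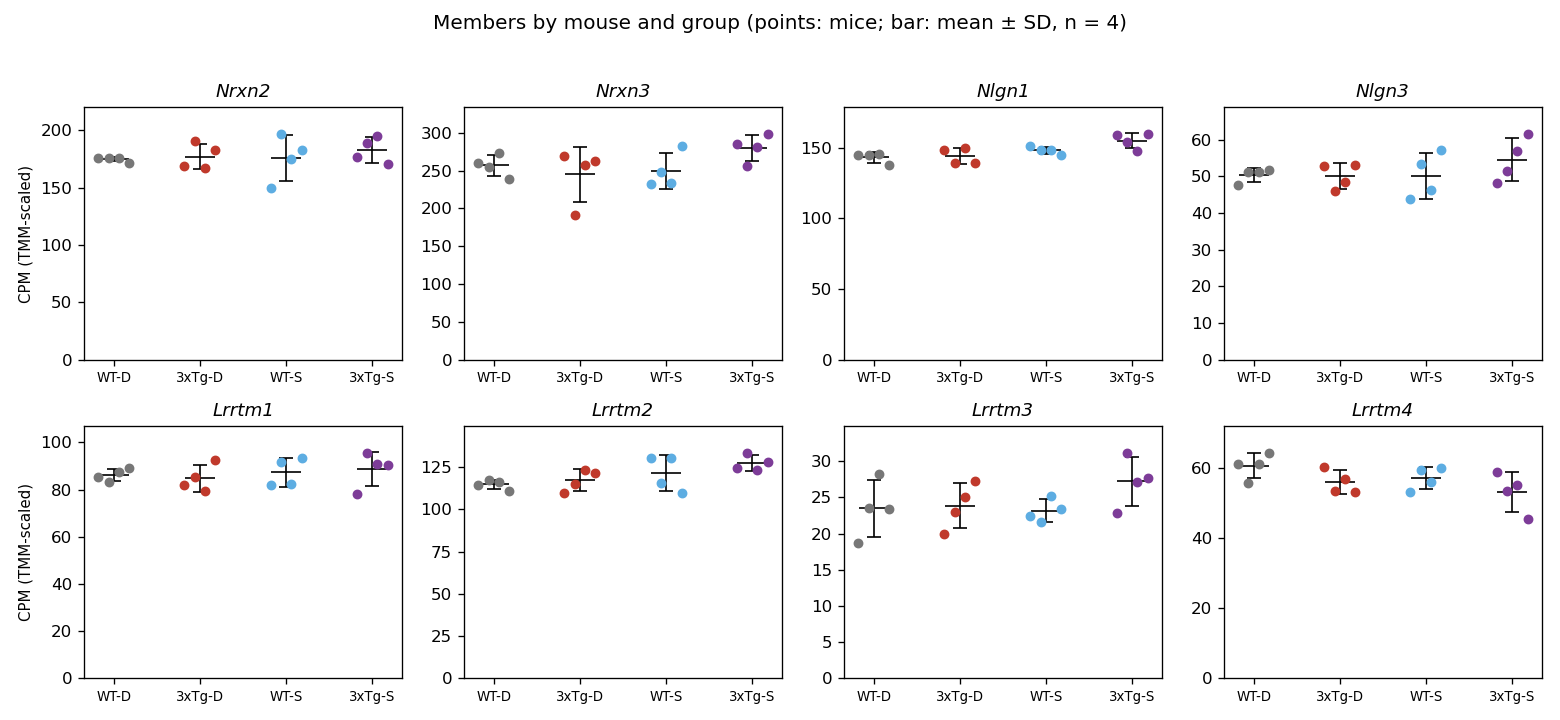
CPM scaled by TMM (y axis, from 0) of each member in the 4 groups (x axis), with 1 point per mouse and a bar for the mean ± SD (n = 4). The groups overlap for most members, Lrrtm2 is higher in all 3xTg-S mice (123 to 133) than in all WT-D mice (111 to 117), and 1 3xTg-D mouse is low for Nrxn3 (191).

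The next question was what CAY10566 did in 3xTg mice. Between 3xTg-D and 3xTg-S, 0 of 8 members were DEGs, against 0.904% of all tested genes. Log2 fold changes (3xTg-S minus 3xTg-D) were positive for 7 of 8 members, from 0.05 for Nrxn2 to 0.19 for Nrxn3 and Lrrtm3, and −0.07 for Lrrtm4. Their median was 0.11, where that of all genes was 0.01. Medians of the astrocyte, microglia and oligodendrocyte markers were −0.23, −0.32 and −0.31. Those of the hippocampal neuron, interneuron, endothelial and oligodendrocyte precursor markers were 0.02, −0.09, 0.12 and 0.005. No member reached an unadjusted p of 0.05, and the smallest adjusted p over all genes was 0.722 in edgeR's test. Under other settings of that test some did. These were Nrxn3 (p 0.0130) and Lrrtm3 (p 0.0285) with the replicate number as a block. Nlgn1 (p 0.0354) did with all 16 mice in one fit, and Lrrtm3 (p 0.0498) with the share of reads outside annotated exons as a covariate. Lrrtm2 was the 1 of 8 members whose groups did not overlap, at 109.8 to 123.2 CPM in 3xTg-D and 123.4 to 133 CPM in 3xTg-S, while 3.16% of all genes did not overlap. This narrow gap rested on the TMM scaling. Relative to reads on genes alone the groups overlapped, with 2234 of 18056497 reads in mouse 4 of 3xTg-D and 1903 of 15413385 in mouse 1 of 3xTg-S. The widest intervals belonged to Lrrtm3, up to an increase of 36.6%, and Nrxn3, up to an increase of 34.5%.

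Nrxn3 in 3xTg-S mice was at 285, 257, 281 and 298 CPM. The 3xTg-D mouse at 191 CPM lay far below its group and pulled the mean down to 245 ± 36.3 (SD, n = 4), against 280.4 ± 17.3 in 3xTg-S. Without that mouse (mouse 2 of 3xTg-D) the log2 fold change of Nrxn3 was 0.08 rather than 0.19 (unadjusted p 0.278 in edgeR's test). Lrrtm3 was at 19.9, 23, 25.1 and 27.3 CPM in 3xTg-D and at 22.8, 31.1, 27.2 and 27.7 CPM in 3xTg-S. The groups overlapped for both genes.

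The inhibitor-treated 3xTg mice were also compared with vehicle-infused WT mice, a comparison that holds both the genotype and the inhibitor and shares its WT-D mice with the first comparison and its 3xTg-S mice with the second. Of the 8 members, 0 were DEGs, against 5.69% of all tested genes, and 2 had an unadjusted p of 0.05 or less, in opposite directions, where 13.1% of all tested genes did. Lrrtm2, an organizer of excitatory synapses, was at 114, 117, 116 and 111 CPM in WT-D mice and at 124, 133, 123 and 128 CPM in 3xTg-S mice. All 4 3xTg-S mice were above all 4 WT-D mice, with a log2 fold change of 0.13 (SE 0.05, edgeR's quasi-likelihood test, unadjusted p 0.0290, adjusted p 0.297). Lrrtm4, which binds neurexins through their heparan sulfate chains and is known in the dentate gyrus, was at 61.4, 56.0, 61.2 and 64.4 CPM in WT-D and at 58.9, 53.5, 55.3 and 45.6 CPM in 3xTg-S mice. Its groups overlapped, with a log2 fold change of −0.21 (SE 0.08, edgeR's quasi-likelihood test, unadjusted p 0.0312, adjusted p 0.306). Neither passed the DEG threshold or held after adjustment. Over 18 fits, across settings and with single mice left out, the log2 fold change ran from 0.11 to 0.15 for Lrrtm2. For Lrrtm4 it ran from −0.26 to −0.13.

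Nlgn1 was the other member whose mice did not overlap between WT-D and 3xTg-S, at 138 to 145 CPM and 148 to 159.5 CPM. That made 2 of 8 members without overlap, where 9.55% of all genes did not overlap. For Nlgn1 this rested on the TMM scaling. Relative to reads on genes alone its groups overlapped, with 3436 of 23309273 reads in mouse 1 of WT-D and 3236 of 22098297 in mouse 2 of 3xTg-S. The remaining 5 members had log2 fold changes from 0.02 (Lrrtm1) to 0.20 (Lrrtm3), and the widest interval, that of Lrrtm3, reached an increase of 39.8%. Lrrtm2 was a DEG in 1 alternative fit, with the share of reads outside annotated exons as a covariate. There its log2 fold change was 0.14 (unadjusted p 0.00823, adjusted p 0.107 in edgeR's test).

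**Figure D3:**
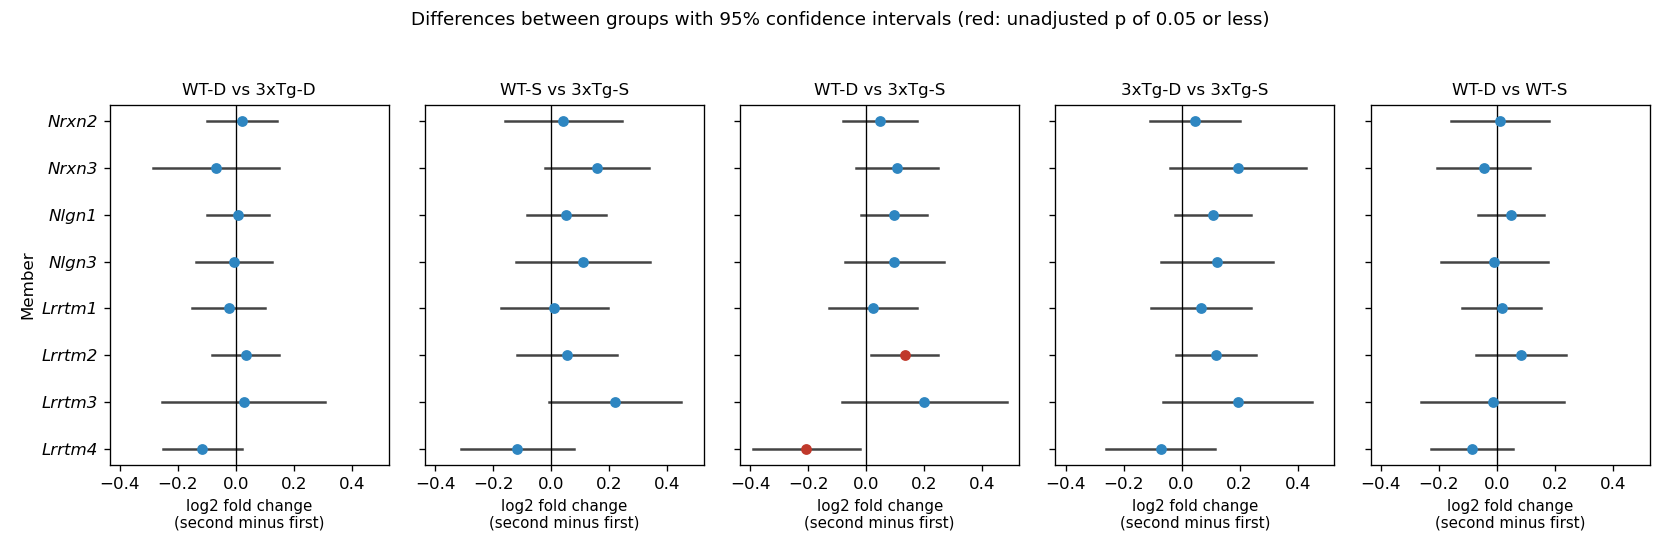
Log2 fold change of each member (y axis) with its 95% confidence interval (x axis, second group minus first) in the 5 pairwise comparisons, one panel each. Lrrtm2 (0.13) and Lrrtm4 (−0.21) in WT-D vs 3xTg-S are the only points in red, with an unadjusted p of 0.05 or less, and all other intervals cross 0.

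Under CAY10566 no member passed the DEG threshold between the genotypes either. Between WT-S and 3xTg-S, 0 of 8 members were DEGs, against 4.26% of all tested genes, and none had an unadjusted p of 0.05 or less. With the replicate number as a block, Nrxn3 (p 0.0290) and Lrrtm3 (p 0.0425) did in edgeR's test. Lrrtm3 (p 0.0223) also did with the share of reads outside annotated exons as a covariate. Log2 fold changes (3xTg-S minus WT-S) ran from −0.12 for Lrrtm4 to 0.22 for Lrrtm3, which was at 22.5, 21.6, 25.2 and 23.4 CPM in WT-S mice. Mice of the 2 groups overlapped for all 8 members, while 6.75% of all genes did not overlap. In WT mice, the inhibitor left the members within −0.09 (Lrrtm4) and 0.08 (Lrrtm2) on the log2 scale (WT-S minus WT-D). There, 0 of 8 were DEGs, against 0.188% of all tested genes, the smallest unadjusted p was 0.212 in edgeR's test, and 0 of 8 were without overlap, against 1.48% of all genes. The intervals in WT mice ran from a decrease of 16.5% to an increase of 18%.

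The difference between the inhibitor's effects in 3xTg and in WT mice was tested as a genotype by inhibitor interaction in all 16 mice. No member passed the DEG threshold, against 0.595% of all tested genes. The interaction was positive for all 8 members, from 0.01 for Lrrtm4 (−0.02 without the filter on low counts) to 0.24 for Nrxn3 on the log2 scale (0.12 without the low 3xTg-D mouse), with a median of 0.06 where that of all genes was 0.01, and the smallest unadjusted p of a member was 0.0939 in edgeR's test (adjusted p 0.788). Left out singly, mice 1 and 4 of WT-S and 1, 2 and 3 of 3xTg-S took 1 or more of Lrrtm1, Lrrtm2, Lrrtm4 and Nrxn2 to or below 0, at the lowest to −0.037 for Lrrtm4. Interval bounds ran from −0.21 to 0.57, so the difference of effects was less well bounded than the effects themselves.

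Lrrtm4 had the lowest log2 fold change of the 8 members in all 6 comparisons, 5 of them below 0, although these comparisons share mice. Its group means fell from 60.7 ± 3.52 CPM in WT-D to 57.2 ± 3.21 in WT-S, 56.0 ± 3.38 in 3xTg-D and 53.3 ± 5.64 in 3xTg-S (SD, n = 4 each). Summed per length, the 4 LRRTMs made up 62.9 ± 1.61 CPM per kb in WT-D, 63.7 ± 0.791 in WT-S, 62.2 ± 2.57 in 3xTg-D and 65.5 ± 3.39 in 3xTg-S mice. In the same order of groups the 2 neurexins made up 33.0 ± 1.23, 32.5 ± 2.85, 32.3 ± 2.30 and 35.5 ± 1.02 CPM per kb, and the 2 neuroligins 16.1 ± 0.267, 16.4 ± 0.510, 16.1 ± 0.596 and 17.4 ± 0.723 CPM per kb. Lrrtm1 was the highest LRRTM in every mouse.

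Nrxn3 moved with a property of the libraries. Of the reads mapped uniquely, 7.82% to 15.1% per mouse lay outside annotated exons, reads in introns among them. This share had group medians of 11.3% (WT-D), 10.2% (WT-S), 10.5% (3xTg-D) and 12.4% (3xTg-S). Across the 16 mice, log2 CPM of Nrxn3 rose with this share, with Pearson's r of 0.656 (permutation p 0.00601, adjusted p 0.0481 over 8 members) and Spearman's rho of 0.759 (permutation p 9.7e-04, adjusted p 0.00776), and r was 0.694 (permutation p 0.00393, adjusted p 0.0314) after the 2 mice with the most extreme shares were left out. Of all tested genes, 14.7% had an r at least as high. Among WT mice alone (8) it was 0.528 (exact permutation p 0.18) and among the 8 3xTg mice 0.705 (exact permutation p 0.0542). As deviations from group means, Pearson's r came to 0.596 (permutation p 0.00813, adjusted p 0.0650). By rank, the relation within 3xTg mice was closer and passed the correction, at a Spearman's rho of 0.976 (p 4.0e-04, adjusted p 0.00317, permuted exactly). The rank correlation did not pass in WT mice (0.619, adjusted p 0.230) or for the deviations (0.635, adjusted p 0.117), by permutation. The 3xTg-D mouse at 191 CPM had a share of 8.79%, the lowest of its group. With the share as a covariate, the log2 fold change of Nrxn3 between 3xTg-D and 3xTg-S was 0.12 (unadjusted p 0.212, adjusted p 0.807 in edgeR's test), where it was 0.19 without.

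Nlgn3 had an r of 0.562 with the share (permutation p 0.0237, adjusted p 0.0948), which did not pass the correction, and 19.1% of all tested genes had an r at least as high. For the other 6 members r lay between −0.27 and 0.22 and none passed. Among the 28 pairs of members, deviations from group means correlated most between Nlgn3 and Lrrtm1 (r of 0.631) and Nrxn3 and Nlgn3 (r of 0.617), and most negatively between Nlgn1 and Lrrtm1 (r of −0.61), over 16 mice. No pair passed the correction over 28 pairs, with adjusted permutation p values of r from 0.174 up.

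**Figure D4:**
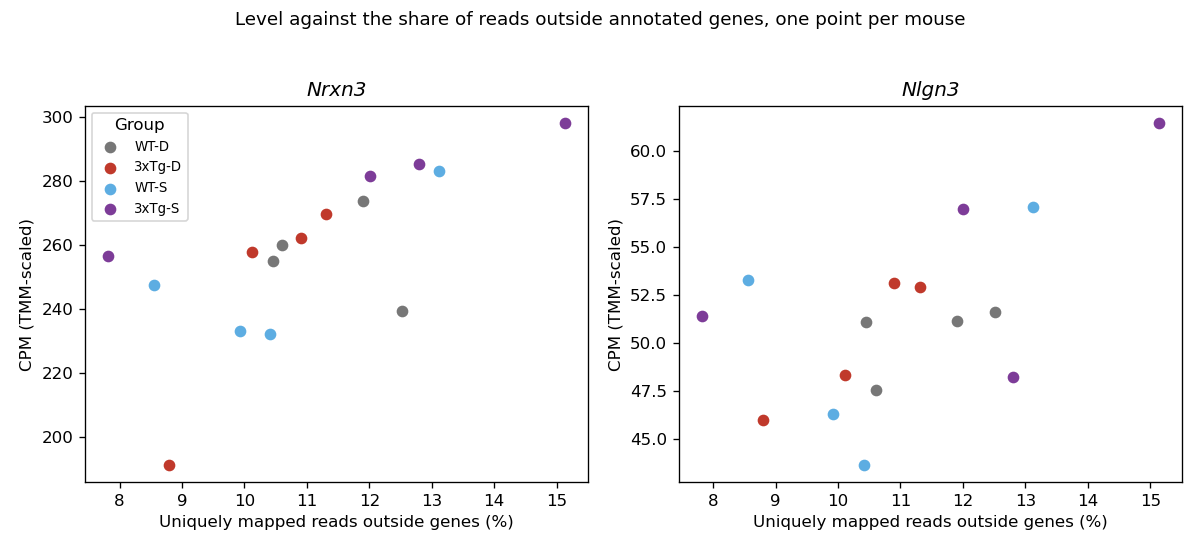
CPM of Nrxn3 and Nlgn3 (y axes, not from 0) against the percentage of uniquely mapped reads outside annotated exons, with 1 point per mouse coloured by group. The x axis is labelled as outside genes, but reads in introns are included. The 3xTg-S mouse with the highest share (15.1%) is the highest for both genes (298 and 61.4 CPM), and the 3xTg-D mouse at 8.79% is the lowest for Nrxn3 (191 CPM).

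The genes most alike each member were sought by Pearson's r of log2 CPM over the 16 mice among 13294 protein-coding genes. Nrxn3 ran closest with Gpr158 (r of 0.955), an orphan receptor of neurons, and Htt (r of 0.945), huntingtin. Lrrtm1 was closest to Dlgap4 (0.929), a postsynaptic scaffold protein, and Atg13 (0.905), and Trim9 was among the 2 genes nearest to Nlgn3 (0.882). Nrxn2 was closest to Zmiz2 (0.899) and Ccdc97 (0.876), Lrrtm2 to Alkbh8 (0.879) and Pde1a (0.874), and Lrrtm3 to Elavl4 (0.894), a neuronal RNA-binding protein, and Hspa5 (0.873), an endoplasmic reticulum chaperone. The nearest genes of Lrrtm4 (Htra4, 0.831, and Trdmt1, 0.791) and Nlgn1 (Star, 0.83, and Rabgap1l, 0.790) were less close. These mice share groups and library properties, so the values are a description.

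Members were next set beside 73 genes of the same machinery, in 8 lists, of which all passed the filter on low counts. The 17 ligands and modulators of neurexins and neuroligins held the clearest changes. C1ql2, a secreted protein of dentate granule cells that binds neurexins at mossy fibre synapses, was at 42.2, 35.7, 37.7 and 43.4 CPM in WT-D mice and at 26.2, 49.4, 38.0 and 40.5 CPM in WT-S mice. It was at 17.3, 24.8, 16 and 20.6 CPM in the 3xTg-D group and at 17.9, 14.3, 17.3 and 15.2 CPM in the 3xTg-S group. All 8 3xTg mice were below all 8 WT mice. The log2 fold change was −1.01 (SE 0.13, adjusted p 0.00232 in edgeR's test) from WT-D to 3xTg-D and −1.27 (SE 0.17, adjusted p 0.00401) from WT-S to 3xTg-S. C1ql2 was also among the 9 hippocampal neuron markers and was the only one of them called in these comparisons, while Prox1, of the same granule cells, had group means of 131 ± 17.9 (WT-D), 128 ± 22.1 (WT-S), 115 ± 6.37 (3xTg-D) and 117 ± 15.4 CPM (3xTg-S, SD, n = 4 each).

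Gpc4, a heparan sulfate proteoglycan that binds Lrrtm4, fell by 0.38 on the log2 scale from WT-D to 3xTg-S (SE 0.10, adjusted p 0.112 in edgeR's test) and by 0.44 from WT-S to 3xTg-S (SE 0.11, adjusted p 0.123). It was at 27.2, 24, 24.7 and 29.4 CPM in WT-D mice, 24.5, 29.6, 24.9 and 30.8 in WT-S and 22.7, 18, 22.9 and 18.4 in 3xTg-S mice, which overlapped with neither. Cbln4, a secreted protein of the cerebellin family, rose by 0.34 from WT-D to 3xTg-S (SE 0.10, adjusted p 0.131 in edgeR's test), while its log2 fold change from WT-D to 3xTg-D, where it missed the threshold, was 0.38 (SE 0.13, unadjusted p 0.0122, adjusted p 0.225 in edgeR's test), and Nxph3, a neurexophilin that binds neurexins, rose by 0.58 from WT-S to 3xTg-S (SE 0.16, adjusted p 0.137). Leaving out 1 mouse at a time kept C1ql2 called throughout, whereas Gpc4 missed the threshold without mouse 1 or 4 of WT-D, mouse 2 of WT-S or mouse 4 of 3xTg-S (largest unadjusted p 0.0147 in edgeR's test). Cbln4 missed it without mouse 2, 3 or 4 of WT-D or mouse 3 or 4 of 3xTg-S (largest p 0.0201 in edgeR's test), and Nxph3 without mouse 1 or 2 of WT-S or mouse 2 of 3xTg-S (largest p 0.0120 in edgeR's test). After adjustment over all genes, C1ql2 alone of the 73 partner genes was below 0.05 in edgeR's test.

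Of the 22 LAR-type receptor phosphatases and their partners, which organize synapses in parallel to the neurexins, Ntng2 (−0.35, SE 0.09, adjusted p 0.110) and Ntng1 (−0.21, SE 0.06, adjusted p 0.125), both netrin-G adhesion proteins, fell from WT-D to 3xTg-D without overlap of the mice (edgeR's test). Ntng2 was also lower in 3xTg-S than in WT-D mice (−0.26, SE 0.08, adjusted p 0.169 in edgeR's test). Lrfn5, a postsynaptic partner of the phosphatases, rose by 0.24 from 3xTg-D to 3xTg-S (SE 0.07, adjusted p 0.722 in edgeR's test), from 71.1, 69.7, 66.3 and 77.9 to 81.8, 87.9, 81.6 and 85.9 CPM, without overlap. It was the only partner gene called in that comparison, and no partner gene was called from WT-D to WT-S or in the interaction. With the replicate number as a block, 11 of 73 were called from 3xTg-D to 3xTg-S and 6 in the interaction, all positive. Of all 16475 tested genes, 1133 and 624 were called in these fits. Without single mice the call of Ntng1 was lost for mouse 3 of WT-D and mouse 1 of 3xTg-D (largest p 0.0153 in edgeR's test), that of Ntng2 between WT-D and 3xTg-D for mouse 4 of WT-D and mouse 1 of 3xTg-D (largest p 0.0111 in edgeR's test), that of Ntng2 between WT-D and 3xTg-S for 7 of 8 mice, all but mouse 4 of 3xTg-S (largest p 0.0314 in edgeR's test), and that of Lrfn5 for mice 1, 2 and 3 of 3xTg-D and mouse 4 of 3xTg-S (largest p 0.0165 in edgeR's test).

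**Figure D5:**
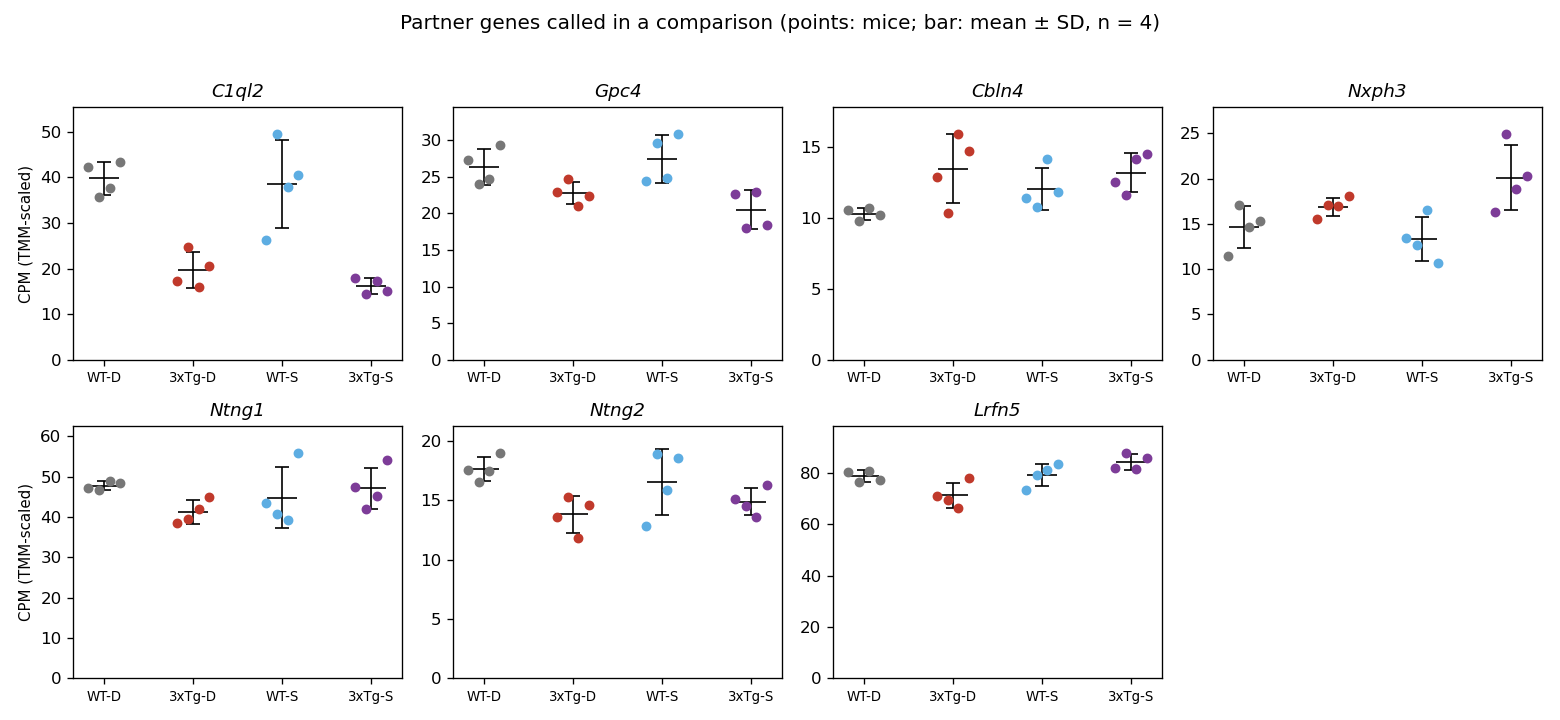
CPM scaled by TMM (y axis, from 0) of the 7 partner genes called in a comparison, in the 4 groups (x axis), with 1 point per mouse and a bar for the mean ± SD (n = 4). C1ql2 separates all 8 3xTg mice (14.3 to 24.8) from all 8 WT mice (26.2 to 49.4), and the other 6 genes show smaller differences.

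No gene was called in any of the 6 comparisons in the other 6 lists. These were 10 latrophilins, teneurins and FLRTs, 4 SynCAMs, 10 intracellular partners such as Cask and Dlg4 (the scaffold PSD-95), 3 Khdrbs splicing regulators of the neurexins, 4 enzymes that cleave the ectodomains or stubs, and the 3 alpha-catenin host genes. The median log2 fold change of the latrophilin list was 0.26 from 3xTg-D to 3xTg-S and 0.17 from WT-D to 3xTg-S, where the median of all genes in the first of these was 0.01. In counts over all 8 lists, 0 genes rose and 3 fell from WT-D to 3xTg-D, 1 rose and 3 fell from WT-D to 3xTg-S, and 1 rose and 2 fell from WT-S to 3xTg-S. These were 4.11%, 5.48% and 4.11% of the 73 genes, near the 4.91%, 5.69% and 4.26% of all tested genes in the same comparisons.

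Some markers of other cell types differed between groups beside these values. Of 5 oligodendrocyte markers, 3 (Mbp and Mobp, both myelin genes, among them) rose from WT-D (summed level 4070.2 to 4826 CPM) to 3xTg-D (5298 to 6376 CPM), 0 rose and 2 fell (Mag and Mog) from WT-D to 3xTg-S, and 1 (Mag) fell from 3xTg-D to 3xTg-S. Of 6 choroid plexus markers, 1 (Ttr) fell in both comparisons with WT-D, and of 4 blood markers, 2 (Alas2 and Hbb-bt) rose from WT-D to 3xTg-S and from WT-S to 3xTg-S. Of 5 interneuron markers, 1 (Vip) rose, and of 3 oligodendrocyte precursor and 4 striatum markers, 1 each (Olig2 and Rgs9) fell, in both comparisons with WT-D. From WT-S to 3xTg-S, no oligodendrocyte, choroid plexus, interneuron or oligodendrocyte precursor marker was called, and 1 striatum marker (Rgs9) fell. None of the 5 astrocyte, 5 microglia, 4 endothelial or 4 thalamus markers was called in a comparison. Among 9 hippocampal neuron markers, the summed level was 4309 to 4667 CPM (WT-D), 4329.5 to 4850.0 CPM (WT-S), 3935 to 4331 CPM (3xTg-D) and 4129.5 to 4951 CPM (3xTg-S). The part of these cell types in the values of C1ql2, Lrrtm2 and Lrrtm4 was not tested.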

How the data were processed

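Hippocampal mRNA of 16 mice, 4 per group, was sequenced as single-end reads. The authors trimmed the reads (Trimmomatic 0.35), aligned them with STAR 2.5.1b to GRCm38 with Gencode annotation, and deposited raw read counts for each gene, not normalized. The strand setting and any use of the molecular identifiers for duplicates are not given in the sources used here. The depth was 15413385 to 23590149 reads on genes. Intervals bound the difference between groups, given the spread between these mice, and do not give the range of single mice.

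Counts were analysed with edgeR 4.0.16 (R 4.3.3). Genes were filtered with filterByExpr (minimum count 10, minimum total 15), which left 16475 of the 33942 with a count, and libraries were scaled by TMM. Groups were compared pairwise by the quasi-likelihood test, fitted over all genes, with a DEG taken, as in the study, at an unadjusted p of up to 0.01, and Benjamini-Hochberg adjusted p over all tested genes. Exon lengths came from Gencode M21 on the same build. Correlations across mice used permutation tests (100000 resamples, or exact within 8 mice). The fits were tested on simulated counts. Pairs of libraries in a group differed by more than counting noise (chi-square over its degrees of freedom from 3.80 to 45.6).

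Some items, an allele of the 3xTg line among them, are not reported here. The members and gene lists were chosen with earlier results of these data known. A member's log2 fold change, SE and p were to be printed at an unadjusted p of 0.05 or less, partner and marker genes were named at 0.01 or less (at most 5 per list), and the 2 most alike genes per member among those with a mean of at least 1 CPM. The labels number the mice of a group from 1 to 4. Deviations from group means correlated above 0.1 for every same-numbered pair between WT-D and WT-S alone (lowest 0.114), and there the replicate block changed no call of a member.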

Additional observations from a re-analysis of the deposited data

Results flagged for a closer look

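A lone high or low mouse was sought in 60 sets of 4 mice (8 members and 7 partner genes in 4 groups), of which chance alone picks out about 1 in 20, and 4 sets, all of members, held one. Nrxn2 in mouse 4 of the WT-D group was at 172 CPM, below the other 3, which lay at 175 to 176. Nrxn3 in mouse 2 of the 3xTg-D group was at 191 CPM, below 258 to 269.6 in the other 3. Nlgn1 in mouse 4 of the WT-D group was at 138 CPM, below 145 in each of the other 3. Nlgn3 in mouse 1 of the WT-D group was at 47.6 CPM, below 51.1 to 51.6 in the others.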

How the results depend on the processing

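In 920 fits of a member in a comparison, 48 gave an unadjusted p of 0.05 or less and 0 an adjusted p of 0.05 or less. Among the 920 fits, 1 was a DEG (Lrrtm2 between WT-D and 3xTg-S, with the share of reads outside annotated exons as covariate). The count of members called was thus 0 in every fit of the other 5 comparisons, DESeq2 and the fits that left out 1 mouse included. With 4 mice per group, a member was bounded only to the intervals given above, and most loosely Lrrtm3, which had the fewest reads. The cause of the changes below was not tested.

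Counts of partner genes called moved more, from 3 (WT-D vs 3xTg-D), 1 (3xTg-D vs 3xTg-S), 4 (WT-D vs 3xTg-S), 3 (WT-S vs 3xTg-S), 0 (WT-D vs WT-S) and 0 (interaction). At an adjusted p of 0.05 or less the first 4 were 1, 0, 1 and 1. Between WT-D and 3xTg-D there were 5 with DESeq2 under either size factor (874 of all 16475 genes) and 5 without a filter (1170 of 33942). DESeq2 called 1 from WT-D to WT-S (48 of all genes) and 1 in the interaction (114 or 115). With library size only, 1 was called from WT-D to WT-S (34 of all genes). With all 16 mice in one fit, 1 was called there (48 of all genes) and 2 from 3xTg-D to 3xTg-S (249). The share as covariate gave 2 from 3xTg-D to 3xTg-S (181 of all genes) and 8 from WT-D to 3xTg-S (1379). Leaving out 1 mouse gave 1 to 5, 0 to 4, 1 to 9, 1 to 5, 0 to 8 and 0 to 3 in the order above. Over all genes those fits called 651 to 914, 68 to 802, 664 to 1545, 516 to 993, 22 to 516 and 56 to 487. No log2 fold change of a called partner gene, of Lrrtm2 or of Lrrtm4 between WT-D and 3xTg-S turned its sign under any of these settings.

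With the replicate number as a block, partner genes called were 5 from WT-D to 3xTg-D, 11 from 3xTg-D to 3xTg-S, 9 from WT-S to 3xTg-S, 1 from WT-D to WT-S and 6 in the interaction. Over all genes the block called 944, 1133, 1075, 1339, 115 and 624 genes, against 809, 149, 937, 702, 31 and 98 without it. It changed no call of a member. With the block, Nrxn3 had an unadjusted p of 0.0130 from 3xTg-D to 3xTg-S and 0.0290 from WT-S to 3xTg-S in edgeR's test. Lrrtm3 had 0.0285 and 0.0425 in the same comparisons and 0.0456 from WT-D to 3xTg-S. The adjusted p of each was 0.159 or more. Outside WT-D and WT-S, the lowest correlation of a same-numbered pair was −0.10, 0.02, 0.06 and −0.10 in the first 4 comparisons, so pairing was not shown for every pair there. The mean was 0.04, 0.21, 0.18 and 0.24 over same-numbered pairs and −0.01, −0.07, −0.06 and −0.08 over the others. Between WT-D and WT-S these means were 0.22 and −0.07. Whether the numbers stand for a batch was not tested.

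Over all genes, an adjusted p of 0.05 or less left 305, 0, 261, 230, 0 and 0 genes. Without a filter 355, 1077, 180 and 208 were called from 3xTg-D to 3xTg-S, from WT-S to 3xTg-S, from WT-D to WT-S and in the interaction. From 3xTg-D to 3xTg-S, 46 genes were higher and 103 lower, 13 and 148 with library size only, and 687 and 446 with the block, where the balance turned; all 16 mice in one fit called 249 there and 48 from WT-D to WT-S, where the covariate called 49, DESeq2 48 and a floor of 10 counts in every mouse 20. With library size only the split was also 9 higher and 25 lower from WT-D to WT-S (13 and 18 otherwise) and 38 and 64 in the interaction (50 and 48). Without mouse 2 of 3xTg-S there were 802 from 3xTg-D to 3xTg-S, 1545 from WT-D to 3xTg-S and 487 in the interaction, and without mouse 4 of WT-S 516 from WT-D to WT-S. The other mice moved the count from 3xTg-D to 3xTg-S to between 68 and 272 and that of the interaction to between 56 and 380.

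As deviations from group means, r with the share outside annotated exons was 0.596 for Nrxn3, no longer past the correction. It turned to −0.0795 for Lrrtm1 and −0.11 for Lrrtm3. Without the 2 most extreme shares r turned to 0.45 for Lrrtm4. None of these 3 members had passed.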
